A study of Mus musculus with 50 samples.

Results

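The transcript of p53 (Trp53) and those of 8 of its target genes, Mdm2, Ccng1, Bbc3, Phlda3, Trp53inp1, Sesn1, Zmat3 and Aen, were followed in mouse CD8+ T cells during the first day of activation. The 9 genes were taken by symbol from a table of 21647 Ensembl genes, all 9 were found, and all 9 had enough counts to be tested. CD8+ T cells of 10-week-old mice had been collected from the spleen with magnetic anti-CD8a beads and cultured on plate-coated anti-CD3e (2 ug/ml) with soluble anti-CD28 (2 ug/ml), which together stand in for antigen and costimulation. Libraries of poly(A) RNA were made at 0h, when the cells are labelled naive, and after 2h, 6h, 12h and 24h. Each time had 5 wild-type (WT) mice and 5 knockout (KO) mice, and each mouse gave 1 library per time, so that 50 libraries in 10 groups entered. Both genotypes carry the same strain label, C567BL/6J, and both were stimulated in the same way. The knockout mice are called KO throughout. Sex and litter are not given in the sources used here.

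p53 is a transcription factor that is made all the time and is mostly destroyed again. Mdm2, itself a target of p53, is the ubiquitin ligase that does this, so the protein level of p53 can change without any change in its mRNA, and target transcripts are the usual readout of its activity. In thymocytes and T cells p53 is best known for stopping the cell cycle through Cdkn1a (p21) and for killing cells with damaged DNA through Bbc3 (PUMA) and Pmaip1 (NOXA). Several of its targets are also driven by other transcription factors, so a target transcript is not a measure of p53 alone.

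Library totals ran from 9571625 to 31293872 counts, with a median of 23548632. The summed level of 8 CD8 T cell genes at 0h was 3650 to 18700 CPM over all mice, but WT mice 1 and 4 stood apart from the other 8 mice. At 0h the summed level of 12 immature thymocyte genes was 2050 to 2580 CPM (library-scaled counts, relative to the library total) in these 2 mice. It was 278 to 476 CPM in WT mice 2, 3 and 5, and KO mice had 433 to 560 CPM. The recombinase gene Rag1 stood at 406 and 286 CPM in WT mice 1 and 4, and at 0.117 to 0.289 CPM in the remaining WT animals, with 0.0723 to 12.9 CPM in KO mice. Not all 12 genes went this way. Cd1d1 was lower in WT mice 1 and 4 (15.8 and 19.0 CPM, against 24.6 to 50.6 CPM in the other mice). So was Tdgf1 (0 and 0.358 CPM, against 0.614 to 1.54 CPM). Themis (310 and 291 CPM) lay within the range of the other mice (145 to 375 CPM). The sum of 20 genes of G2 and mitosis was 6520 to 8110 CPM in WT mice 1 and 4, where WT mice 2, 3 and 5 had 167 to 247 CPM and KO mice had 377 to 1380 CPM. For 20 S phase genes the sums were 6860 to 8470, 922 to 1060 and 1180 to 2830 CPM. Cd8a was at 288 and 477 CPM there, whereas WT mice 2, 3 and 5 had 1660 to 2800 CPM and KO mice had 1300 to 1550 CPM. Both mice also had a low sum of 5 NK cell genes (2.12 to 13.1 CPM, against 45.4 to 207 CPM in the other mice). Most of that sum was Eomes, with 1.95 and 11.9 CPM in these 2 mice. Eomes was at 39.6 to 56.3 CPM among the remaining WT animals and at 53.8 to 199 CPM among KO animals. Ncr1, Klrb1c, Klra8 and Klra7 each stayed at or below 6.68 CPM in every mouse, so the low sum mainly reflects Eomes. The sum of 8 B cell genes was 42.3 to 51.7 CPM in these 2 mice and 64.2 to 876 CPM elsewhere. The 0h sums of 4 CD4 T cell genes (7.23 to 19.2 CPM) and 10 myeloid genes (59.6 to 217 CPM) overlapped between the mice. Cd4 itself was higher in these 2 mice (14.1 and 8.16 CPM, against 0.156 to 1.38 CPM in the others). Their CD4 sums still overlapped the rest at 2h (17.5 to 18.4 CPM, against 9.19 to 31.1 CPM). They lay above the rest at 6h (39.8 to 51.9 CPM, against 15.4 to 23.9 CPM) and 12h (51.3 to 92.3 CPM, against 6.28 to 12.0 CPM). The same held at 24h (25.6 to 83.4 CPM, against 7.26 to 14.1 CPM). At 0h 8 erythroid and platelet genes reached 105 to 148 CPM in these 2 mice, with 2.64 to 78.2 CPM elsewhere. The main WT results are therefore given with and without these 2 mice, and in bulk samples fewer cells of a type and less RNA per cell cannot be told apart. How far the other cells in these libraries set the values of the p53 genes was not tested.

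p53 binds a pair of 10-base half-sites, each with a fixed C and G in its core. Promoter windows of RefSeq (GRCm38.p6, from 250 bases before to 50 bases after a start site) were searched for this consensus with a spacer of up to 13 bases and up to 3 mismatches. The consensus reads alike on both strands, so that one scan covers both. Of the 9 genes, 7 had a window and 5 of these held a match. Some genes have several windows, and by window 7 of 11 held a match, with the same Aen site counted in overlapping windows. Of the 37 other p53 targets described below, 31 had a window and 10 of these held a match, in 11 of 46 windows. The shares over all genes that follow are per window. Matches with 0 mismatches were found in 0.0731% of 32851 windows of all genes, with at most 1 mismatch in 0.627%, with at most 2 in 4.09% and with at most 3 in 15.6%. The closest match among the 8 targets was in Ccng1 (1 mismatch), followed by Sesn1 (2 mismatches) and Bbc3 (3 mismatches). The start site of the Bbc3 window printed lies inside the annotated gene. Another Bbc3 window also held a match with 3 mismatches, and a further one held none (6 mismatches at best). The Sesn1 window nearer the 5′ end of the gene held none (5 mismatches at best). Cdkn1a is shown beside them because it is the best known target and the window printed holds a match with 0 mismatches. The search keeps the pair with the fewest mismatches whatever its spacer, and this Cdkn1a pair lies 12 bases apart. In the stretch printed, the 10 lower-case bases right after the downstream half-site also match a half-site with 1 mismatch. These 2 adjacent half-sites form a pair with no spacer, which the capitals do not mark. Another Cdkn1a window, at a start site inside the gene, held no match (5 mismatches at best). They are printed 5′ to 3′ on the strand of the gene, with the half-sites in capitals, because these genes took different courses during activation.
Ccng1, chr11:40755372-40755536, minus strand, first half-site base at -195 from the start site: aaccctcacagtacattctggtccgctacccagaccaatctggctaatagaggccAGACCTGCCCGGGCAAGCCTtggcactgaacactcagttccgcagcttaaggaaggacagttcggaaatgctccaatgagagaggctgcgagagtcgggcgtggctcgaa
Sesn1, chr10:41887189-41887365, plus strand, at a start site inside the gene, first half-site base at -186: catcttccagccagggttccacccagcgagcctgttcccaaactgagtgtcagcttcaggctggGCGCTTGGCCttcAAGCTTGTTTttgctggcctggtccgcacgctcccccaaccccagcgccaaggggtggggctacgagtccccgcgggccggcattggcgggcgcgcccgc
Bbc3, chr7:16309396-16309582, plus strand, first half-site base at -97: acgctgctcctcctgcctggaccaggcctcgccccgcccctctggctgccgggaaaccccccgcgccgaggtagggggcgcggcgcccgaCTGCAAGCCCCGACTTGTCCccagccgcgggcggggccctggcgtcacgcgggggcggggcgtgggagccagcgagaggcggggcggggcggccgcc
Cdkn1a, chr17:29090816-29090975, plus strand, first half-site base at -73: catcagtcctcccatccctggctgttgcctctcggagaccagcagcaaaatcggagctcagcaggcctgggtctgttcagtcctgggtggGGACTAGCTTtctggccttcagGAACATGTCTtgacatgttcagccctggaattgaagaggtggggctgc
Aen held a match with 3 mismatches at its start site, AGACAGGTAGccgaagccGGGCTTGTCC at chr7:78895919-78895946, and the Trp53 window also held one with 3 mismatches. The windows of Mdm2 and Phlda3 held no match within 3 mismatches, with 4 and 5 mismatches at best. Sequence outside the windows was not searched. A match is a description of the sequence and not evidence of binding, and no binding data were used here.

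Per kilobase of exon, the most abundant of the 9 transcripts were Trp53inp1 (median over the 50 libraries 68.6 CPM per kb), Trp53 (62.7) and Ccng1 (61.6). Mdm2 followed with 23.9 CPM per kb, Aen with 19.4, Sesn1 with 17.7 and Bbc3 with 11.0. Phlda3 (7.65 CPM per kb) and Zmat3 (4.41) were the lowest. Phlda3 had the fewest counts, from 0 to 1161 per library, whereas the counts of Trp53 ran from 1631 to 11666 and those of Trp53inp1 from 800 to 46490. All levels below are CPM after TMM scaling, listed for mice 1 to 5 in order. All differences are log2 ratios with their standard errors (SE) and adjusted p from edgeR's quasi-likelihood test, with 5 libraries per group, and a gene is said to rise or fall where its adjusted p was under 0.05.

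**Figure D1:**
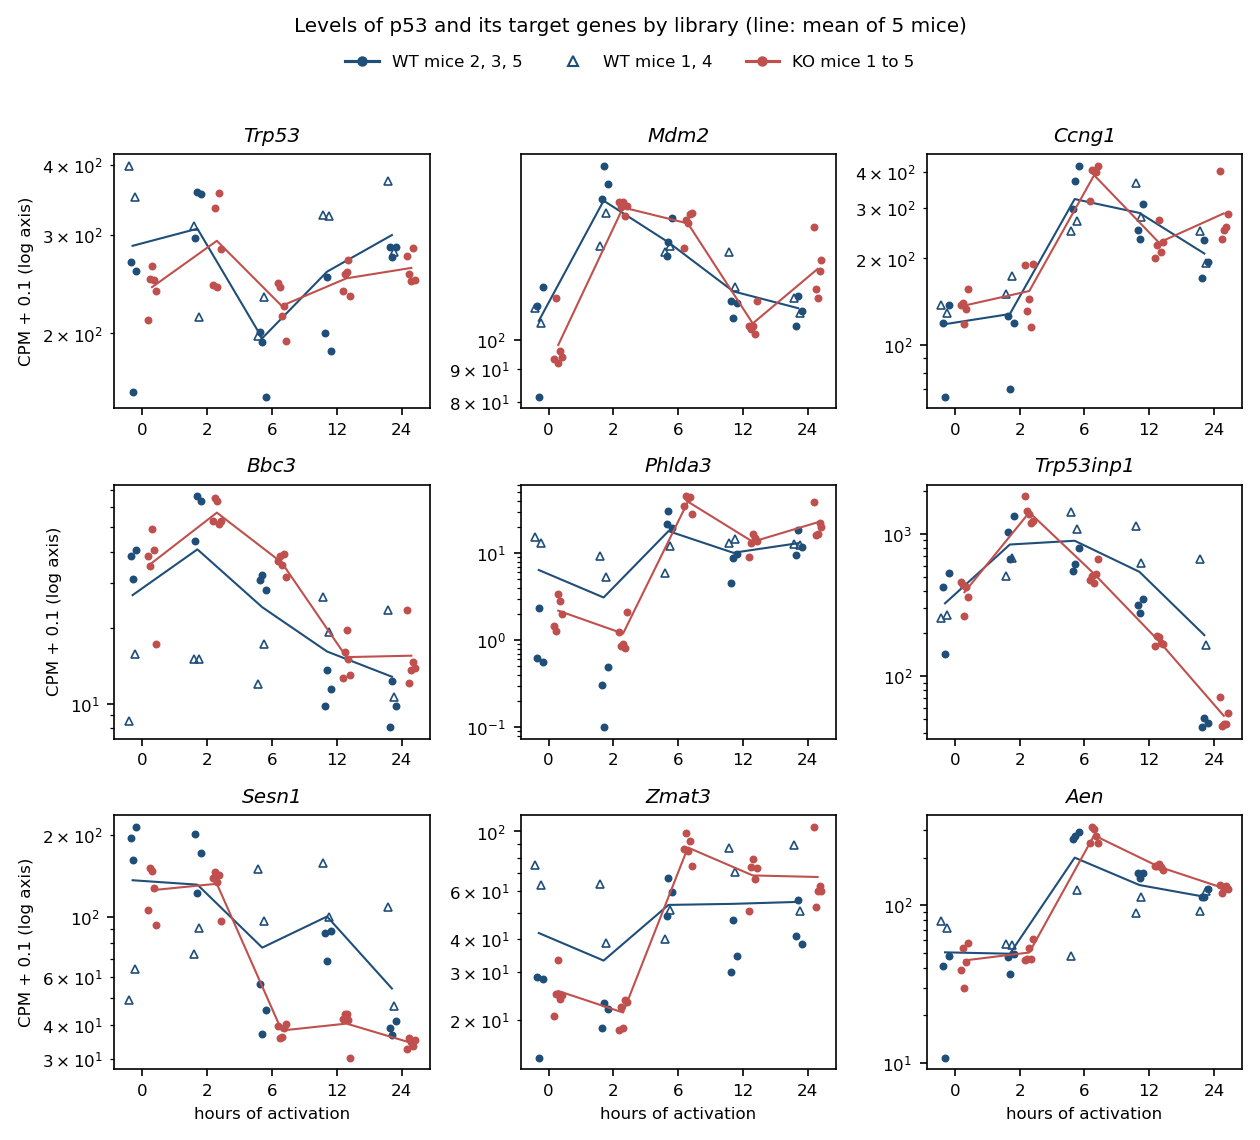
Levels of the 9 genes in each library against hours of activation, 1 panel per gene, on a log y axis of CPM + 0.1. Filled blue circles are WT mice 2, 3 and 5, open blue triangles WT mice 1 and 4, red circles KO mice, and lines join the means of the 5 mice. The Trp53 panel is nearly flat, and Phlda3 in the KO mice goes from 1.16 to 3.25 CPM at 0h to 27.7 to 44.8 CPM at 6h.

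Trp53 itself (ENSMUSG00000059552, chr11:69580359-69591873, plus strand) changed little. In KO mice it stood at 211, 250, 264, 249 and 238 CPM at 0h (242 ± 20, SD, n = 5). The later levels were 293 ± 52.8 CPM at 2h, 224 ± 21.1 CPM at 6h, 251 ± 15.5 CPM at 12h and 262 ± 16.4 CPM at 24h. None of these 4 changes from 0h passed the test, and the log2 differences lay between -0.11 and 0.27. In WT mice the 0h levels of 399, 268, 157, 351 and 259 CPM (287 ± 93.0) were spread more widely, with mice 1 and 4 the highest. At 6h they were 198, 201, 193, 232 and 154 CPM, lower than at 0h in 4 of 5 mice, and Trp53 fell by 0.55 on the log2 scale (SE 0.167, adjusted p = 0.0074). In WT mice 2, 3 and 5 alone the change from 0h was -0.33 and did not pass (adjusted p = 0.0674), while Trp53 rose by 0.55 at 2h (adjusted p = 0.0034) and then fell by 0.88 from 2h to 6h. By mouse the change to 2h was 0.15, 1.19 and 0.46 in mice 2, 3 and 5, largest in mouse 3, which had the lowest 0h level. With only mouse 3 left out, the WT change at 2h was -0.08 (adjusted p = 0.8). From 12h to 24h the WT levels were 186 to 326 and 274 to 375 CPM, and no change from 0h was called at either time.

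Mdm2 (ENSMUSG00000020184, chr10:117688875-117710758, minus strand), the ligase that destroys p53, rose within 2h in both genotypes. In WT mice it went from 112, 113, 81.4, 106 and 121 CPM at 0h to 140, 166, 187, 158 and 175 CPM at 2h. In KO mice it went from 93.4, 116, 91.8, 96.1 and 93.8 CPM to 164, 161, 164, 156 and 162 CPM. The groups of the 2 times did not overlap in either genotype. The share of all genes whose libraries separated between times was not counted, here or for the genes below. The log2 rise was 0.63 in WT mice (SE 0.0899, adjusted p = 7.95e-07) and 0.72 in KO mice (SE 0.09, adjusted p = 2.25e-08). At 6h Mdm2 was still above 0h, by 0.41 in WT and 0.63 in KO mice, and at 12h it was at 119 ± 11.1 and 106 ± 5.21 CPM, where no change from 0h was called. Leaving out WT mice 1 and 4 gave WT rises of 0.72 at 2h and 0.44 at 6h. At 24h Mdm2 was above 0h by 0.4 in KO mice (adjusted p = 0.000236), whose libraries then held 150, 120, 116, 128 and 133 CPM. This was not called with library totals in place of TMM (0.24, adjusted p = 0.0672). The step from 12h to 24h was 0.29 in KO mice (adjusted p = 0.0338), a call lost when any 1 KO mouse was left out (adjusted p 0.0642 to 0.197), with library totals (adjusted p = 0.0776) and with no filter on low counts (adjusted p = 0.0893). In WT mice the 24h levels were 116, 105, 117, 110 and 111 CPM, and no change from 0h was called. The change to 24h was larger in KO mice by 0.33 (SE 0.127), which did not pass (adjusted p = 0.275).

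Ccng1 (ENSMUSG00000020326, chr11:40748552-40755311, minus strand) encodes cyclin G1, which recruits a phosphatase to Mdm2. No change was called at 2h, and it rose by 6h in both genotypes. The 0h levels were 138, 119, 65.9, 129 and 138 CPM in WT mice and 138, 140, 118, 133 and 157 CPM in KO mice. By 6h they were 249, 297, 373, 271 and 420 CPM in WT mice and 318, 408, 403, 401 and 419 CPM in KO mice, so that every library at 6h lay above every library at 0h. The rise was 1.45 in WT mice (SE 0.194, adjusted p = 1.41e-07) and 1.51, or 2.84-fold, in KO mice (SE 0.194, adjusted p = 3.85e-08). Ccng1 stayed raised at 12h (1.29 in WT, 0.72 in KO) and at 24h (0.82 in WT, 1.06 in KO). In KO mice it fell by 0.78 from 6h to 12h, a call lost when any 1 KO mouse was left out (adjusted p 0.0637 to 0.127), and the 24h group held 1 high library, mouse 1 at 404 CPM, with the other 4 at 234 to 286 CPM. The WT calls held without WT mice 1 and 4, with 1.75, 1.25 and 0.89 at the 3 times.

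Phlda3 (ENSMUSG00000041801, chr1:135766119-135769136, plus strand) encodes a small PH-domain protein that keeps AKT off the membrane, and in KO mice it had the largest fold rise of the 9 genes. Its KO levels were 1.34, 1.16, 3.25, 2.7 and 1.92 CPM at 0h and 1.15, 0.757, 0.813, 0.717 and 1.99 CPM at 2h. At 6h they were 35.1, 44.8, 43.3, 43.7 and 27.7 CPM, a rise of 4.23 over 0h or 18.8-fold (SE 0.801, adjusted p = 2.89e-05). They stayed above 0h at 12h (13.4 ± 2.9 CPM, a rise of 2.7) and at 24h (22.5 ± 9.03 CPM, a rise of 3.44), where KO mouse 1 was highest at 38.1 CPM. The WT mice split. Mice 1 and 4 already held 15.3 and 12.9 CPM at 0h and 5.84 and 12.1 CPM at 6h. Mice 2, 3 and 5 held 0.517, 2.22 and 0.467 CPM at 0h, 0.203, 0 and 0.389 CPM at 2h, and 21.5, 30.3 and 19.1 CPM at 6h. In the library at 0, 3 counts would have been 0.32 CPM. Over all 5 WT mice the difference at 6h was 1.49 and did not pass (SE 0.714, adjusted p = 0.0942), whereas it was called without WT mouse 1 (2.33) or without WT mouse 4 (2.03). Without both it was 4.7 (SE 0.52, adjusted p = 1.28e-09), with rises of 3.02 at 12h and 3.87 at 24h and a fall of 1.88 at 2h. With mouse as a block, which pairs each library with the same animal's 0h library, Phlda3 was called over all 5 WT mice at 6h (2.6, adjusted p = 0.00317) and 24h (1.88, adjusted p = 0.0201).

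Zmat3 (ENSMUSG00000027663, chr3:32334792-32366014, minus strand) encodes a zinc-finger protein that binds RNA and regulates splicing. The KO levels moved from 20.5, 24.9, 33.3, 23.9 and 24.6 CPM at 0h to 85.9, 98.6, 84.5, 92.3 and 74.2 CPM at 6h. That was a rise of 1.78 or 3.42-fold (SE 0.322, adjusted p = 1.51e-05), and it was still 1.43 at 12h and 1.41 at 24h. No KO library at 6h, 12h or 24h overlapped those at 0h. In WT mice the 0h levels were 75.3, 28.7, 14.4, 63.1 and 28.3 CPM, again with mice 1 and 4 highest, and the 6h levels were 39.9, 48.6, 67.3, 51.1 and 59.6 CPM. Zmat3 went up in the 3 mice that had started low and down in mice 1 and 4, and the WT change at 6h was 0.34 (SE 0.312, adjusted p = 0.414), or 0.59 with mouse as a block (adjusted p just under the threshold). In the fit without those 2 mice it was a rise of 1.28 (adjusted p = 1.53e-05), followed by 0.58 at 12h and 0.91 at 24h.

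Sesn1 (ENSMUSG00000038332, chr10:41809935-41908424, plus strand) encodes a sestrin, an inhibitor of the growth kinase mTORC1, and went the other way. The KO levels stood at 106, 151, 147, 127 and 92.8 CPM at 0h and at 139, 146, 134, 142 and 96.5 CPM at 2h. At 6h it was at 39.4, 35.7, 36.1, 38.7 and 40.3 CPM, a fall of 1.72 or 3.28-fold (SE 0.336, adjusted p = 4.79e-05). It remained at 40.3 ± 5.77 CPM at 12h and 34.2 ± 1.23 CPM at 24h, falls of 1.63 and 1.87 from 0h. The WT mice split at 0h, with 49.2 and 64.0 CPM in mice 1 and 4 and 194, 161 and 214 CPM in mice 2, 3 and 5. At 6h these orders were turned round, with 149 and 96.3 CPM in mice 1 and 4 against 56.4, 37.0 and 45.4 CPM in the other 3 mice. The fall over all WT mice was 0.83 at 6h (SE 0.329, adjusted p = 0.0407), a call that was lost when any 1 of WT mice 2, 3 and 5 or any 1 KO mouse was left out, and with library totals (-0.73, adjusted p = 0.0932). It was 1.33 at 24h (adjusted p = 0.00125), and at 12h the difference of -0.44 did not pass. Sesn1 in WT mice 2, 3 and 5 alone fell by 2.04, 1.27 and 2.29 at 6h, 12h and 24h. The gene shares 2584 bases with an unspliced transcript annotated on the same strand that is not among the counted genes.

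Of the 3 targets tied to cell death, Bbc3 and Trp53inp1 were highest at 2h and Aen at 6h in 5 of 5 KO mice. Bbc3 (ENSMUSG00000002083, chr7:16308393-16318205, plus strand) encodes PUMA, a BH3-only protein that opens mitochondria to cell death. Its KO levels were 38.3, 34.9, 49.0, 40.4 and 17.2 CPM at 0h and 52.5, 64.9, 63.0, 51.1 and 52.9 CPM at 2h, higher in 5 of 5 mice. The change of 0.66 was not called in the fit of all 50 libraries, but it was called without WT mice 1 and 4 (0.63, adjusted p = 0.00447) and in a fit of only the 10 KO libraries of these times (0.69, adjusted p = 0.0152). It was at 15.2 ± 2.75 CPM at 12h and 15.4 ± 4.54 CPM at 24h, falls of 1.25 (adjusted p = 0.00446) and 1.22 (adjusted p = 0.00468, 2.33-fold). In WT mice 2, 3 and 5 Bbc3 likewise stood at 38.3, 31.1 and 40.6 CPM at 0h, then 43.9, 66.0 and 63.5 CPM at 2h and 7.99, 12.2 and 9.73 CPM at 24h. WT mice 1 and 4 started at 8.44 and 15.7 CPM, below every other library of that time, and reached 26.3 and 19.1 CPM at 12h, above the other WT mice. Over all 5 WT mice Bbc3 fell by 1.07 at 24h (SE 0.369, adjusted p = 0.0164), a call lost without WT mouse 2 (adjusted p = 0.142) or WT mouse 5 (adjusted p = 0.129). When WT mice 1 and 4 were left out, a rise of 0.64 at 2h (adjusted p = 0.0281) and falls of 1.72 at 12h and 1.88 at 24h were called.

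Aen (ENSMUSG00000030609, chr7:78895854-78911209, plus strand), an exonuclease that helps to degrade DNA in dying cells, rose at 6h and then declined slowly. In KO mice it was at 38.8, 53.1, 29.6, 43.4 and 57.4 CPM at 0h, at 50.0 ± 6.93 CPM at 2h and at 247, 314, 306, 274 and 246 CPM at 6h. The rise at 6h was 2.64 or 6.23-fold (SE 0.322, adjusted p = 1.39e-08), and rises of 1.98 and 1.52 were left at 12h and 24h. All 5 KO mice peaked at 6h. In WT mice the 6h levels were 47.3 CPM in mouse 1, 124 CPM in mouse 4 and 262, 276 and 293 CPM in mice 2, 3 and 5. WT mouse 1 was the only animal of the 10 whose level at 6h lay below its level at 0h (79.7 CPM). The WT rise was 2.0 over all mice (SE 0.315, adjusted p = 2.65e-06) and 3.04 without mice 1 and 4. Rises of 1.42 at 12h and 1.18 at 24h followed in WT mice, or 2.18 and 1.81 without those 2.

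Trp53inp1 (ENSMUSG00000028211, chr4:11156431-11174379, plus strand) encodes a cofactor of p53 that promotes autophagy and cell death, and it rose as early as Mdm2 and later fell below its starting level. The KO levels went from 462, 437, 263, 424 and 358 CPM at 0h to 1840, 1440, 1390, 1190 and 1230 CPM at 2h, a rise of 1.87 (SE 0.473, adjusted p = 0.00149). It was at 524 ± 84.0 CPM at 6h, where no change from 0h was called, and then fell to 176 ± 12.5 CPM at 12h and 52.4 ± 11.1 CPM at 24h. The fall from 0h was 1.14 at 12h, a call lost when any 1 KO mouse was left out (adjusted p 0.0541 to 0.114), and 2.89 or 7.42-fold at 24h (SE 0.492, adjusted p = 4.42e-06). WT mice 2, 3 and 5 held 424, 143 and 534 CPM at 0h, 1040, 671 and 1330 CPM at 2h and 43.6, 50.7 and 46.7 CPM at 24h. WT mice 1 and 4 reached their highest levels later, 1430 and 1080 CPM at 6h, and still held 664 and 166 CPM at 24h. Over all WT mice Trp53inp1 rose by 1.37 at 2h (adjusted p = 0.0218, lost without WT mouse 3 or 4) and 1.46 at 6h (lost without WT mouse 4, adjusted p = 0.0575), while the change of -0.74 at 24h did not pass (adjusted p = 0.19) unless mouse was a block (-1.34, adjusted p = 0.0086). With WT mice 1 and 4 left out it rose by 1.46 at 2h and 0.83 at 6h and fell by 2.96 at 24h, and the change at 12h, 0.73 over all WT mice, was -0.27, called in neither fit.

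**Figure D2:**
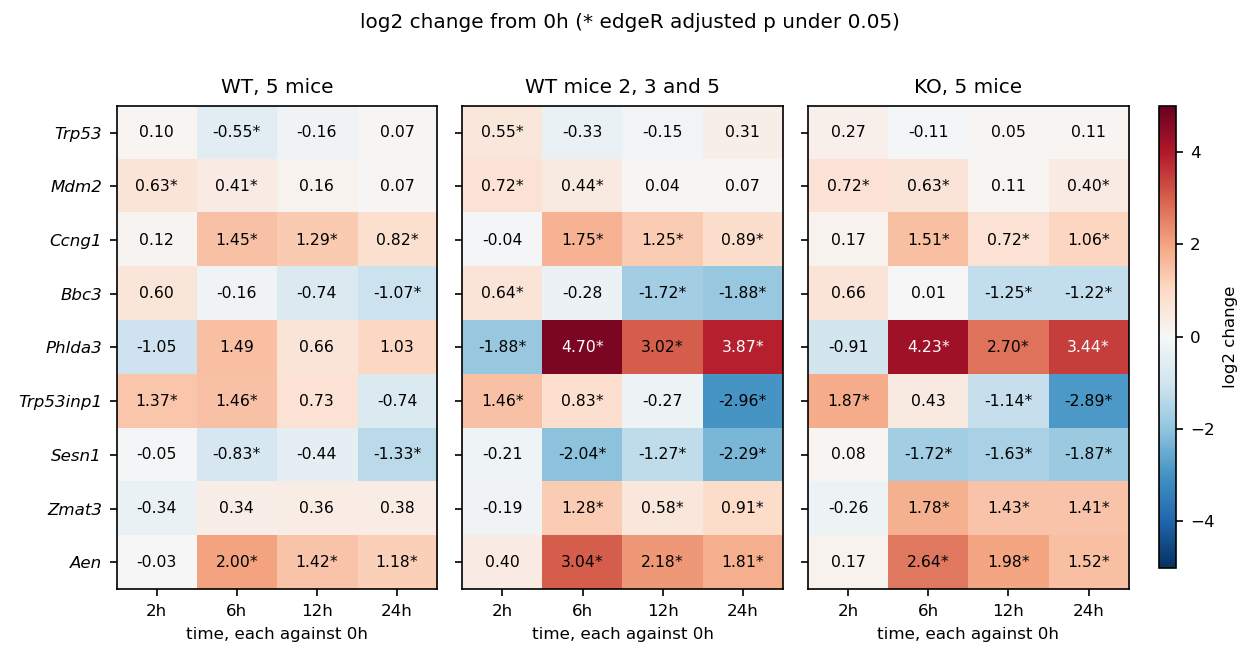
Heat map of log2 changes from 0h, with genes in rows and hours of activation in columns, for the 5 WT mice, WT mice 2, 3 and 5, and the 5 KO mice. An asterisk marks an adjusted p under 0.05; at 6h Phlda3 reads 1.49 over all WT mice, 4.7 in WT mice 2, 3 and 5 and 4.23 in KO mice.

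Set side by side in the heat map of changes, the 9 genes did not move as one group. In KO mice 2 rose and 0 fell at 2h, 5 rose and 1 fell at 6h, 4 rose and 3 fell at 12h, and 5 rose and 3 fell at 24h. The share of all 13294 tested genes called in KO mice was 39.9%, 49.2%, 52.8% and 58.7% at these times, so 2 of 9 called at 2h lay below that background and 6, 7 and 8 of 9 lay above it. Their median log2 change was 0.17, 0.63, 0.11 and 0.4, against -0.08, -0.04, -0.03 and 0.02 over all genes. In WT mice 2, 4, 2 and 2 members rose and 0, 2, 0 and 2 fell at the 4 times, with 30.2%, 39.9%, 39.4% and 44.1% of all genes called. The 2, 6, 2 and 4 of 9 called lay below these shares at 2h and 12h, above at 6h and near at 24h. The WT counts without mice 1 and 4 were 4, 6, 4 and 4 risen and 1, 1, 2 and 3 fallen, with 49.7%, 59.8%, 60.2% and 64.6% of all genes called. The 5, 7, 6 and 7 of 9 called in that fit lay above these shares. The WT and KO changes each share the 0h libraries of their genotype across times.

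The genes also differed in when they were highest. Trp53inp1 and Bbc3 were highest at 2h in 5 of 5 KO mice and 3 of 5 WT mice, and Mdm2 in 4 of 5 KO mice and 5 of 5 WT mice. Aen was highest at 6h in 5 of 5 KO and 4 of 5 WT mice, and Ccng1, Phlda3 and Zmat3 each in 4 of 5 KO and 3 of 5 WT mice. Between 2h and 6h, when 43.2% of all genes were called in KO mice, 4 members rose there (Ccng1 by 1.34, Phlda3 by 5.15, Zmat3 by 2.04, Aen by 2.47) and 2 fell (Trp53inp1 by 1.44, not called without KO mouse 1, and Sesn1 by 1.79). In WT mice, with 29.3% of all genes called, Ccng1 (1.33), Phlda3 (2.54, adjusted p = 0.00743) and Aen (2.03) rose over this step and Trp53 fell (-0.65, adjusted p = 0.0024). Between 6h and 12h only Mdm2 (a fall of 0.52) and Ccng1 (a fall of 0.78) were called in KO mice, with 2.86% of all genes, and 0 of 9 in WT mice, where edgeR called 81 of all genes (0.609%) and 1427 had an unadjusted p under 0.05. DESeq2 called 0 of the 9 there too. From 12h to 24h, with 10% of all genes called in KO mice and 15.1% in WT mice, Mdm2 (0.29) and Trp53inp1 (-1.75, adjusted p = 0.0142) were called in KO mice and Trp53inp1 (-1.48, adjusted p = 0.0262) in WT mice. Both Trp53inp1 calls were lost with fewer mice, that in KO mice without any 1 of them (adjusted p 0.052 to 0.0984) and that in WT mice without WT mouse 2, 4 or 5 (adjusted p 0.0935 to 0.112). With mouse as a block, Trp53inp1 (-1.57) and Bbc3 (-1.26) also fell from 6h to 12h in KO mice. The same fit called Trp53 from 2h to 6h in KO mice (-0.37), and in WT mice Sesn1 (-0.86) and Zmat3 (0.93) from 2h to 6h and Sesn1 (-0.92) from 12h to 24h. In WT mice 2, 3 and 5 alone Phlda3, Mdm2, Zmat3, Trp53inp1, Bbc3 and Aen fell from 6h to 12h, and Sesn1 rose by 0.77, with 20.6% of all genes called. KO mouse 1 held the highest level of its group at 24h for 7 of the 9 genes, against 22.6% of all genes.

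How many members differed between the genotypes depended on which libraries were fitted. At 12h, in the fit of all 50 libraries, 2 of 9 members were lower in KO mice, with 13.1% of all genes called. Trp53inp1 stood at 163, 191, 187, 171 and 168 CPM in KO mice and at 1140, 316, 278, 623 and 350 CPM in WT mice, a difference of -1.62 or 3.08-fold (SE 0.469, adjusted p = 0.021). Sesn1 stood at 42.0, 43.9, 43.9, 41.6 and 30.2 CPM in KO mice and at 158, 86.7, 68.6, 99.9 and 88.4 CPM in WT mice, a difference of -1.32 or 2.49-fold (SE 0.332, adjusted p = 0.0101). In both genes the KO libraries lay below all 5 WT libraries, and the highest WT library was that of mouse 1. Without WT mice 1 and 4, where 23% of all genes were called, the differences were -0.8 for Trp53inp1 (SE 0.24, adjusted p = 0.0148) and -0.97 for Sesn1 (SE 0.155, adjusted p = 4.92e-05), and Zmat3 was higher in KO mice by 0.92 (SE 0.212, adjusted p = 0.00188). A fit of the 10 libraries of 12h alone, in which no mouse counts more than once, called Trp53inp1 (-1.64, adjusted p = 0.0121) and Sesn1 (-1.32, adjusted p = 0.00326) as well, and also called Aen higher in KO mice (0.4, adjusted p = 0.0492), with 29.9% of all genes called. Aen then stood at 176, 176, 183, 174 and 168 CPM in KO mice and at 89.2, 161, 148, 112 and 160 CPM in WT mice, with no overlap. A fit of the 12h libraries alone without WT mice 1 and 4 called 7 of 9 members, with 53.3% of all genes called. In it Phlda3 (0.86), Zmat3 (0.93), Bbc3 (0.43, adjusted p = 0.0461), Trp53 (0.28, adjusted p = 0.043) and Aen (0.21) were higher in KO mice, and Sesn1 (-0.97) and Trp53inp1 (-0.8) lower. The Trp53inp1 call over all mice was lost without WT mouse 4 (-1.55, adjusted p = 0.0593) or without any 1 KO mouse (adjusted p 0.0592 to 0.0734).

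At 6h the only member called was Sesn1, lower in KO mice by 1.01 (a value of -1.01, SE 0.33, adjusted p = 0.0429), with 10.1% of all genes called. This call ended without WT mouse 1 (-0.64, adjusted p = 0.145), without WT mouse 4 (-0.93, adjusted p = 0.124) and without any 1 KO mouse (adjusted p 0.0764 to 0.12). Without both WT mice 1 and 4 it was -0.3 (adjusted p = 0.29), with 4.16% of all genes called and 0 of 9 members. A fit of only the 6h libraries without these 2 mice called Phlda3 (0.72, adjusted p = 0.035) and Zmat3 (0.58, adjusted p = 0.0166) higher in KO mice, with 15% of all genes called. At 0h, 2h and 24h edgeR called 0 of 9 members, while 7.93%, 11.8% and 0.0451% of all genes were called and 3603, 3871 and 916 genes had an unadjusted p under 0.05. DESeq2 called 0, 0 and 1 of the 9 at these times. Without WT mice 1 and 4, Sesn1 was lower in KO mice at 0h (-0.6, SE 0.155, adjusted p = 0.00658, 22.4% of all genes called) and Phlda3 was higher at 2h (2.14, SE 0.596, adjusted p = 0.0329, 4.1% called). That Phlda3 difference sits between 0.717 to 1.99 CPM in KO mice and 0 to 0.389 CPM in the 3 WT mice, at or near the level of 3 counts. At 24h 0 members and 0.0453% of all genes were called without these mice.

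**Figure D3:**
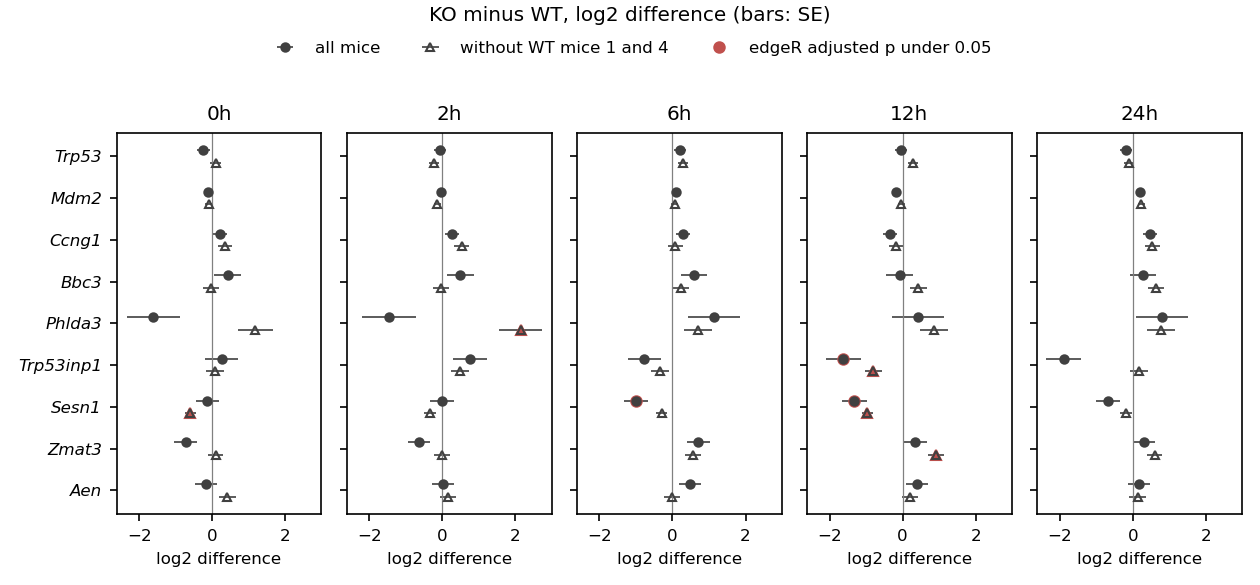
KO minus WT log2 differences with SE bars for the 9 genes at the 5 times. Circles use all mice and triangles leave out WT mice 1 and 4, and red marks an adjusted p under 0.05; at 12h Trp53inp1 reads -1.62 and -0.8 and Sesn1 -1.32 and -0.97.

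Whether the change from 0h differed between the genotypes was tested directly. For the changes to 2h, 6h, 12h and 24h edgeR called 0 of 9 members each time, with 0.015%, 2.47%, 7.5% and 0.0752% of all genes called and 833, 2295, 2908 and 1748 genes at an unadjusted p under 0.05. DESeq2 called 0, 1, 1 and 0 of the 9. The differences of Phlda3 were 2.75 at 6h (adjusted p = 0.132), 2.04 at 12h (adjusted p = 0.227) and 2.42 at 24h (adjusted p = 0.309). Those of Trp53inp1 were -1.88 at 12h (adjusted p = 0.0679) and -2.15 at 24h (adjusted p = 0.173), and that of Zmat3 at 6h was 1.43 (adjusted p = 0.0661). With mouse as a block Zmat3 passed at 6h (1.19, adjusted p = 0.0416) and 12h (1.04, adjusted p = 0.0456). Without WT mice 1 and 4 the Phlda3 differences at 6h, 12h and 24h were -0.48, -0.32 and -0.4 and that of Zmat3 at 6h 0.47, none of them called, and Zmat3 at 12h was 0.84 (SE 0.293, adjusted p = 0.0389). The sign of the Phlda3 differences thus changed when WT mice 1 and 4 were left out, which held 15.3 and 12.9 CPM at 0h where WT mice 2, 3 and 5 held 0.467 to 2.22 CPM.

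Cdkn1a (p21), the inhibitor of cyclin-dependent kinases and the classical p53 target, was close to undetected before activation. It stood at 0.752, 0.498, 0, 0.726 and 1.19 CPM in KO mice at 0h, where 3 counts would have been 0.217 CPM in the library at 0. It was at 71.5 ± 10.3 CPM at 2h and at 198, 221, 222, 222 and 190 CPM at 6h, a rise of 8.3 over 0h (SE 0.777, adjusted p = 4.44e-11). WT mice 2, 3 and 5 went from 0.259, 0.193 and 0.428 CPM to 121, 178 and 120 CPM at 6h, whereas WT mice 1 and 4 went from 5.71 and 4.37 CPM to 7.91 and 44.4 CPM. Cdkn1a levels at 6h, 12h and 24h were higher in all 5 KO mice than in all 5 WT mice, with differences of 1.16, 0.96 and 1.28, none of which was called in the fit of all 50 libraries (adjusted p 0.164 to 0.592). The share of all genes separated in this way was not counted, nor for the separations of members between times or at 12h given above. The fit of only the 10 libraries of 12h called the Cdkn1a difference (0.96, adjusted p = 0.00969). A fit of only the 6h libraries without WT mice 1 and 4 called it too (0.6, adjusted p = 0.0204), with 15% of all genes called. With WT mice 1 and 4 left out, the KO excess was called at 12h (1.04, adjusted p = 0.0146). With mouse as a block, the change of Cdkn1a to 6h was larger in KO mice by 3.13 (adjusted p = 0.0432), whereas without WT mice 1 and 4 that difference was -0.54 (adjusted p = 0.648). The change to 12h was larger in KO mice by 2.72 over all mice (adjusted p = 0.0401, and 0.0564 with library totals), and the difference was -0.08 without WT mice 1 and 4.

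Of 37 further p53 targets, 36 could be tested and Gdf15 could not. In KO mice 12 rose and 8 fell at 2h, 17 rose and 9 fell at 6h, 14 rose and 10 fell at 12h, and 17 rose and 10 fell at 24h, set against the 39.9%, 49.2%, 52.8% and 58.7% of all genes called. Their median log2 change in KO mice was 0.01, 0.77, 0.15 and 0.47 at the 4 times, against -0.08, -0.04, -0.03 and 0.02 over all genes. In WT mice 7, 12, 7 and 9 rose and 6, 4, 5 and 7 fell, or 9, 17, 14 and 15 rose and 11, 9, 11 and 8 fell without mice 1 and 4, where the shares of all genes were 30.2%, 39.9%, 39.4% and 44.1%, or 49.7%, 59.8%, 60.2% and 64.6%. The WT medians were -0.09, 0.26, 0.01 and 0.09, against -0.08, -0.05, -0.09 and -0.08 over all genes. At 24h the largest rises by the mean of both genotypes were those of Perp, a membrane protein of p53-driven death (6.68 in WT, 5.82 in KO), the polo-like kinase gene Plk2 (6.21 and 6.13) and Cdkn1a (3.78 and 6.82). Perp and Plk2 start near 0, with Perp at 0 to 0.795 CPM and Plk2 at 0 to 1.16 CPM at 0h, and reached 11.7 to 20.2 and 18.0 to 49.5 CPM at 24h, so that these fitted changes rest on few counts at 0h. Plk3 rose by 2.75 and 2.21 and the death receptor gene Tnfrsf10b by 1.91 and 2.43. The largest falls were those of the lipid transfer protein gene Pltp (-2.92 in WT, -4.29 in KO), the metalloreductase Steap3 (-2.07 and -2.58), the antiproliferative genes Tob1 (-1.17 and -2.01) and Btg2 (-0.97 and -1.59), and the repair gene Xpc (-0.93 and -1.13). Steap3 in WT mice was at -0.43 without mice 1 and 4 and was not called (adjusted p = 0.423). Bax, the pore-forming partner of PUMA, was added after its values were seen, and went from 94.6 to 123 CPM at 0h to 351 to 428 CPM at 6h in KO mice. In WT mice 1 and 4 Bax stood at 118 and 197 CPM at 6h, against 375 to 430 CPM in the other 3.

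**Figure D4:**
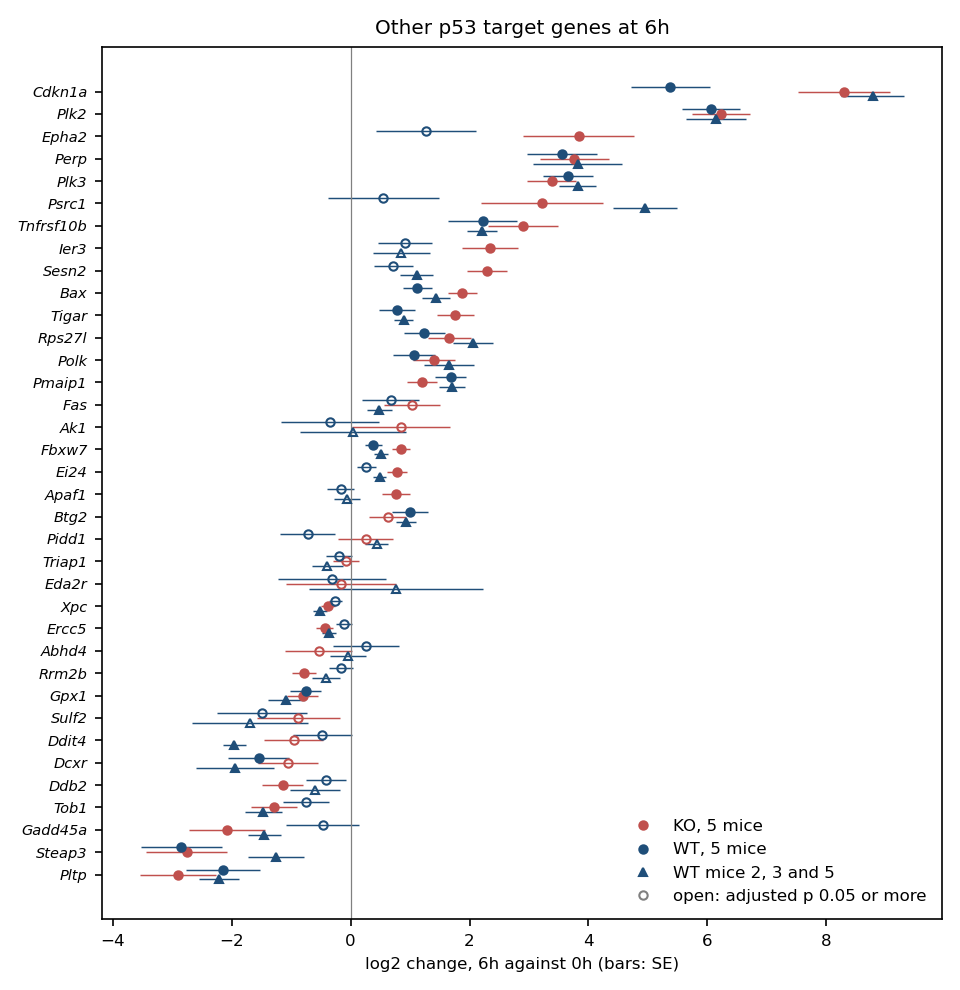
Log2 change at 6h against 0h with SE bars for 36 other p53 targets, ordered by the change in KO mice. Red circles are KO mice, blue circles all WT mice and blue triangles WT mice 2, 3 and 5; filled marks have an adjusted p under 0.05, and a group whose 0h libraries were all at 0 is not drawn. Cdkn1a is at the top, at 8.3 in KO and 5.38 in WT mice.

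Between genotypes, 1, 3, 2, 3 and 0 of these 36 targets were higher in KO mice at the 5 times in order, and 1, 3, 0, 3 and 0 lower, with 7.93%, 11.8%, 10.1%, 13.1% and 0.0451% of all genes called. When WT mice 1 and 4 were left out these counts were 6, 2, 5, 7 and 0 higher and 3, 1, 0, 3 and 0 lower, with 22.4%, 4.1%, 4.16%, 23% and 0.0453% of all genes called. Pmaip1 (NOXA), the BH3-only partner of PUMA, was higher in KO mice at 0h (11.2 to 19.9 against 5.3 to 12.4 CPM, 0.89, adjusted p = 0.0273) and at 2h (42.6 to 70.2 against 11.3 to 41.6 CPM, 0.88, adjusted p = 0.023). With those 2 WT mice left out the differences were 0.6 (adjusted p = 0.0275) and 0.48 (adjusted p = 0.155). Ier3, an immediate early gene, was higher in KO mice at 2h (1.37), 6h (1.99) and 12h (1.54), and at 6h and 12h also without WT mice 1 and 4 (1.55 and 1.43). The repair gene Ercc5 was lower in KO mice at 2h (-0.52) and 12h (-0.53), and without these 2 mice at 12h (-0.29, adjusted p = 0.0426). Psrc1, a spindle protein, changed its direction. Its 0h levels were 114 and 89.2 CPM in WT mice 1 and 4, 0.894 to 1.2 CPM in WT mice 2, 3 and 5, and KO mice held 1.41 to 8.71 CPM, so that it was -3.16 in KO mice over all mice and 2.1 without those 2.

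Of 26 regulators of p53, 24 could be tested, and its relatives Trp63 and Trp73 could not. In KO mice 9 rose and 3 fell at 2h, 8 and 4 at 6h, 6 and 5 at 12h, and 6 and 5 at 24h. That was 12, 12, 11 and 11 of 24, beside 39.9%, 49.2%, 52.8% and 58.7% of all genes. In WT mice 7, 4, 2 and 3 rose and 2, 7, 8 and 6 fell (30.2%, 39.9%, 39.4% and 44.1% of all genes called), and 7 at each time rose and 4, 7, 8 and 5 fell without WT mice 1 and 4 (49.7%, 59.8%, 60.2% and 64.6%). Mdm4, the inhibitor of p53 that pairs with Mdm2, fell by 1.18 in WT and 1.07 in KO mice at 24h, when it stood at 183 to 222 and 211 to 227 CPM. The deubiquitinase genes moved apart, with Usp28 falling by 1.76 and 1.72 and Usp10, which protects p53, rising by 0.61 and 1.39. The ligase gene Rfwd3 (0.86 and 1.95) and the acetyltransferase gene Kat5 (0.5 and 0.47) also rose in both genotypes. Ppp1r13b (-1.09 and -1.13), Crebbp (-0.68 and -0.61) and the DNA damage kinase gene Prkdc (-0.5 and -0.65) fell, with Prkdc in WT mice at -0.37 and not called without mice 1 and 4 (adjusted p = 0.139). Between genotypes 0 regulators were higher in KO mice at 0h and 4 lower, 2 were lower at 2h, and 3 were higher and 1 lower at 12h, beside 7.93%, 11.8% and 13.1% of all genes. Leaving out WT mice 1 and 4 gave 2 higher and 4 lower at 0h (22.4% of all genes), 0 at 2h (4.1%), 1 and 1 at 6h (4.16%), 7 and 0 at 12h (23%) and 0 at 24h (0.0453%). Usp10 was lower in KO mice at 0h (-0.84, adjusted p = 0.0073), a call that ended without WT mice 1 and 4 (-0.25, adjusted p = 0.0944), and higher at 12h (0.56 in both fits). Usp7, which acts on both p53 and Mdm2, was lower at 0h (-0.4) and higher at 12h (0.43), and without these mice the values were -0.14 (not called) and 0.56.

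Likeness was measured as Pearson's r of log2 CPM over the 50 libraries, which share mice and time points, so that r is a description with no test. Among the members the closest pairs were Phlda3 with Zmat3 (r = 0.873 over 50 libraries, 0.883 over the 40 without WT mice 1 and 4) and Ccng1 with Aen (0.87 and 0.922). Sesn1 ran opposite to Phlda3 (-0.818 and -0.901). Trp53 was close to none of its targets, with r from -0.352 to 0.171 over 50 libraries. Over the 40 libraries its r ran from -0.45 (Phlda3) to 0.291 (Mdm2). Over all tested genes, the transcript most like Phlda3 was Ei24 (r = 0.936), which is one of the other p53 targets, followed by St6galnac6 (0.929) and Ydjc (0.918). Aen was most like Qtrt2 (0.973), Tma16 (0.963) and Noc3l (0.962), Zmat3 most like Trim32 (0.904), and Ccng1 most like Il15ra (0.891). Those nearest to Trp53inp1 were Bcl6 (0.935), Klhl24 (0.927) and Zfc3h1 (0.911), and those nearest to Sesn1 were Inpp5k (0.938), Fbxo25 (0.934) and Pdcd4 (0.931). Bbc3 was most like Pde4b (0.884), Mdm2 most like Wsb1 (0.88) and Trp53 most like Usp6nl (0.823).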

How the data were processed

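Per the file headers, the authors deposited 1 table of raw gene counts with a column for each library, not normalized. GRCm38, STAR 2.4, featureCounts 1.4.6 and CASAVA 1.8.2 are named, per the submitters' processing notes, and the labels' protocols name a stranded poly(A) kit and 50 nt single-end reads. The annotation release, the strand setting and the handling of reads with several matches are not given in the sources used here. Gene symbols and coordinates came from GENCODE M21 (21583 of 21647 identifiers matched, 64 did not) and promoter windows from RefSeq (GRCm38.p6). No 2 replicates were identical, and over all genes replicate counts correlated by at most 0.9818 (Spearman).

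Genes were kept by filterByExpr (minimum count 10, minimum total 15, smallest group 5), which left 13294. Libraries were scaled by TMM and fitted in edgeR 4.0.16 (R 4.3.3, limma 3.58.1) by a robust quasi-likelihood model with 1 mean per group of genotype and time, a common dispersion of 0.214 and 40 residual degrees of freedom. Contrasts gave each time against 0h and against the time before it, KO against WT within a time, and how far the changes of the genotypes differed. Benjamini-Hochberg adjustment ran over all genes tested, and an adjusted p under 0.05 was called. The script was tested on simulated data in which libraries were independent and all genes had the same dispersion. That setting has no mouse effect, so it does not test the fit where libraries share a mouse. Library totals limit the precision mainly for Phlda3 and for targets near 0 at 0h. The alternatives were library totals, no filter, DESeq2 1.42.0, each mouse left out, WT mice 1 and 4 left out (13253 genes, 30 residual degrees of freedom, 40 libraries), a block, and fits of only the libraries compared.

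Mouse numbers pair the libraries of 1 animal across times, since each mouse gave 1 library per time. Checked on the counts, an animal's libraries on average deviated together from their group means, with an average r of 0.415 to 0.638 for WT animals and 0.212 to 0.356 for KO animals. The lowest r of any pair was 0.142 in WT animals and -0.022 in KO animals. Libraries of different animals of a genotype were not compared, so the check cannot tell whether numbers were swapped between similar animals. Across genotypes the numbers pair nothing (r from -0.296 to 0.397). KO against WT counts libraries of the same mouse as independent for its spread, so its p-values may be too small, and fits of only 10 libraries do not share this limit.

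The 9 genes, the other lists and the decision to leave out WT mice 1 and 4 were chosen with earlier results of these data known. The rule names all 9 members. From the lists of other targets and of regulators, the rule names those called in both genotypes at 24h against 0h (at most 5 each for rises and falls, largest change first), genes called for KO against WT at 2 or more times, and Cdkn1a. For likeness it takes the 3 genes with the highest r for each member, of which some are given. Some items are left out here, and the genotype labels were not checked against the counts.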

Additional observations from a re-analysis of the deposited data

Results flagged for a closer look

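In 14 of the 90 groups of 5 libraries (9 genes, 5 times, both genotypes), 1 library lay far from the other 4, with a gap to its nearest neighbour above 0.71 of the whole range of the group. Chance alone marks about 1 in 20 groups of independent, normally distributed values. The groups here hold CPM and share libraries across genes, so 14 of 90 cannot be set against that rate. KO mouse 1 at 24h was high for Bbc3 (23.4 CPM), Phlda3 (38.1 CPM) and Zmat3 (104 CPM), and at 6h it was low for Mdm2 (139 CPM) and Ccng1 (318 CPM). At 24h this library was also the highest of its group for 25 of the 36 other p53 targets, against 22.6% of all genes. WT mouse 1 at 24h was high for Trp53 (375 CPM), Bbc3 (23.3 CPM), Trp53inp1 (664 CPM) and Sesn1 (108 CPM), and it was the highest of its group for 40% of all genes. KO mouse 5 was low for Sesn1 at 2h (96.5 CPM) and 12h (30.2 CPM) and high for Mdm2 at 12h (115 CPM). Mdm2 in KO mouse 2 at 0h (116 CPM) stood above the other KO mice, and Ccng1 in WT mouse 3 at 0h (65.9 CPM) stood below the other WT mice.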

How the results depend on the processing

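Counts are of the 9 genes called. Without WT mice 1 and 4 they were 5, 6 and 7 for WT at 2h, 12h and 24h against 0h, 4 for KO at 2h, 1, 1 and 0 for KO against WT at 0h, 2h and 6h, and 1 for the difference of changes at 12h. Fits of only the 10 libraries compared called 0, 2, 1 and 1 in WT mice at the 4 times and 0 for KO against WT at 6h. Only the libraries compared, without WT mice 1 and 4, gave 2 for KO against WT at 6h and 7 at 12h, where 1808 and 6231 of all genes were called. Unfiltered genes and a replicate block of mouse number over both genotypes each gave 0 at 6h. Mouse within genotype as a replicate block gave 1 for the difference of changes at 6h and 1 at 12h, and it changed no call of the 9 genes and Cdkn1a beyond those whose blocked values stand beside the gene. DESeq2 gave 1 for KO against WT at 24h and 1 for the difference of changes at 6h and at 12h. Leaving out 1 mouse at a time gave 1 to 2 for WT at 2h (1 without WT mouse 3 or 4), 2 to 4 for WT at 12h (4 without WT mouse 1), 0 to 1 for KO against WT at 0h and at 24h, 0 to 2 at 6h and 1 to 2 at 12h. For the difference of changes it gave 0 to 2 at 6h and at 12h (2 without WT mouse 3) and 0 to 1 at 24h. The counts for KO at 6h, 12h and 24h moved by less than 1.5 times under every alternative run.

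The values that changed sign included these. Zmat3 from 6h to 12h in WT mice was -0.7 without WT mice 1 and 4, -0.2 with the mouse block, -0.01 by DESeq2, and from -0.32 (without WT mouse 1) through -0.14 (without WT mouse 4) to 0.18 with single mice left out. Sesn1 for KO against WT at 0h was 0.03 with library totals, and -0.36 to 0.07 with single mice left out (0.02 without WT mouse 2, 0.07 without WT mouse 5). Without WT mice 1 and 4, over all libraries and over only those compared, Psrc1 for KO against WT was 2.1 and 2.07 at 0h and 1.67 and 1.75 at 2h, and Phlda3 at 2h was 2.14 and 2.26. The Cdkn1a difference of changes went from 2.92 to -0.54 at 6h and to -0.08 at 12h without these mice, and that of Phlda3 from 2.75, 2.04 and 2.42 at 6h, 12h and 24h to -0.48, -0.32 and -0.4. In the same fit KO against WT went from -1.61 to 1.18 for Phlda3 at 0h and from -1.89 to 0.16 for Trp53inp1 at 24h. Trp53 at 2h in WT mice was -0.08 without WT mouse 3 and up to 0.28 without others. The cause was not tested.

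Library totals in place of TMM moved the median of all genes for KO at 2h from -0.079 to -0.248, and the split of all genes called from 2696 risen and 2611 fallen to 2012 and 3290. Over all genes, KO against WT at 0h called 1054, and 462 with library totals, 647 unfiltered, 2964 without WT mice 1 and 4 and 0 in fits of only 10 libraries. KO against WT at 12h called 1740, and 3045 without WT mice 1 and 4 and 3439 in a fit of only 10 libraries. The difference of changes at 6h called 328, and 131 with library totals, 151 unfiltered, 674 with the block and 1267 without WT mice 1 and 4. Depth limits Phlda3 at 2h, with 0 counts in WT mouse 3, and Cdkn1a at 0h, with 0 counts in KO mouse 3.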
